A study of Rattus norvegicus with 48 samples.

Results

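The level of 10 immediate early genes was followed in the lungs of 48 rats that had breathed filtered air or oil vapor: Fos, Fosb, Jun, Junb, Atf3, Egr1, Klf2, Klf4, Ier2 and Dusp1. They were taken by symbol, as 10 of the 30045 genes in the deposited count tables, and all 10 passed the filter on low counts. The animals were male Sprague-Dawley rats, an outbred stock, of about 200 to 250 g, and a piece of whole lung from each gave 1 library of ribosome-depleted total RNA. In the single schedule the rats were in whole-body chambers for 6 h on 1 day, with air or 300 ppm of oil vapor. In the repeated schedule the same 6 h were given on 4 days per week for 4 weeks, which made 16 exposure days. The rats were killed 1 or 28 days later. There were 8 groups of 6 animals, and every schedule and time had an air group of its own. Rats of the later time were also older, so time after exposure, age and the day of handling cannot be told apart. The repeated schedule took 4 weeks, so its rats may have been older at each time, and each schedule had its own count table. Schedule and age can thus not be told apart either, also where the change with time is compared between schedules.

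Immediate early genes are switched on within minutes of a stimulus, without the need for newly made protein, and their transcripts decay fast. Growth factors, stretch, calcium and stress reach them through MAP kinases, which act on serum response factor and its partners at CArG boxes and on CREB at cyclic AMP response elements. Most of their products are transcription factors that act on later genes, and others shut the response down. In lung, flow over the endothelium also drives Klf2 and Klf4.

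Promoter stretches are shown for Dusp1 and Ier2 because both held a full cyclic AMP response element, the letters TGACGTCA, given in capitals. The sequences come from RefSeq on GRCr8, a later build than the Rnor_6.0 of the counts. Each is the 150 bases before the annotated start, at chr10:17184703-17184852 on the + strand for Dusp1 and at chr19:40399223-40399372 on the + strand for Ier2.
Dusp1: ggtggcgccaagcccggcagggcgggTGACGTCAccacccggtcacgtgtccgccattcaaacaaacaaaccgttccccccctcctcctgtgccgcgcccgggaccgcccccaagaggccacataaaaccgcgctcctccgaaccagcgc
Ier2: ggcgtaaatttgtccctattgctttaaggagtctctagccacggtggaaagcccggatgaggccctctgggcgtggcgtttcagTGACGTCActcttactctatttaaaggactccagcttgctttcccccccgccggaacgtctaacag
Of the 10 genes, 6 had a promoter window in the table (Dusp1, Egr1, Fosb, Ier2, Junb and Klf4), and each was searched on both strands over 250 bases. The windows of Fosb and Klf4 lie inside the annotated span of their own genes, which reaches further upstream, so they may not be at the main start. The full element was in 2 of these 6 windows, against 1.59% of all 33469 windows of that length. Its first part, TGACG, which overlaps it, was in 4 of 6 windows against 18.2%. The Egr1 window held a pair of CArG boxes, CCATATTAGG from -105 to -96 and CCATATATGG from -83 to -74, counted from the start site. A CArG box was in 1 of 6 windows against 1.5% of all windows. The AP-1 letters TGANTCA were in 0 of 6 windows against 6.34%, and the EGR letters GCGNGGGCG in 0 of 6 against 4.29%. CCAAT was in 2 of 6 against 34%, and TATAA in 3 of 6 against 24%, of which 2 are the Fosb and Klf4 windows; these 2 held none of the other motifs. A match describes the letters in this window only and shows no binding.

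Library totals ranged from 1537183 to 7157844 counts. Levels are in CPM, counts scaled to a common library total with TMM factors, and 3 counts were worth 0.412 to 2.74 CPM. The shallowest library, animal 43 of the repeated oil vapor group at 1 day, stood apart in its makeup. Its group ran from 1610.47 to 61354.4 CPM for 9 summed erythroid markers and from 3184.17 to 5544.72 CPM for 10 endothelial markers, with animal 43 at the erythroid top and the endothelial bottom. In each of the other 7 groups the lung label was met, with 8 alveolar type 2 markers summing to at least 13642.9 CPM. Makeup varied there too. The sum of 8 liver transcripts reached 1053.62 CPM in single and 1231.88 CPM in repeated air at 28 days, against medians of 194.858 and 204.154 CPM. The erythroid sum reached 14987.5 CPM in single oil vapor at 1 day, against a median of 3566.83 CPM.

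The members differed widely in how much they varied between animals of the same group. The within-group SD of log2 CPM, pooled over the 8 groups, was 0.97 for Fosb, 0.79 for Fos, 0.71 for Egr1 and 0.59 for Atf3. Their SDs were above those of 97.9%, 96.9%, 96.0% and 92.9% of the 15322 genes measured. The SD was 0.38 for Dusp1, 0.34 for Klf2, 0.33 for Junb, 0.25 for Klf4 and 0.24 for Jun. Ier2 had the smallest, 0.22, which was at the median of all genes, also 0.22. The groups were unequal in spread. For Fos and Fosb the SD ran from 0.27 and 0.41 in repeated air to 1.33 and 1.49 in single air, both at 28 days. Counting error at the median count was 0.26 for Fosb, 0.12 for Fos and 0.19 for Egr1 on the same scale, below each gene's SD. Over all 48 lungs the highest level was 43.3 times the lowest for Fosb, 21.7 times for Fos and 18.3 times for Egr1. It was 2.56 times for Jun and 2.41 times for Klf4.

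**Figure D1:**
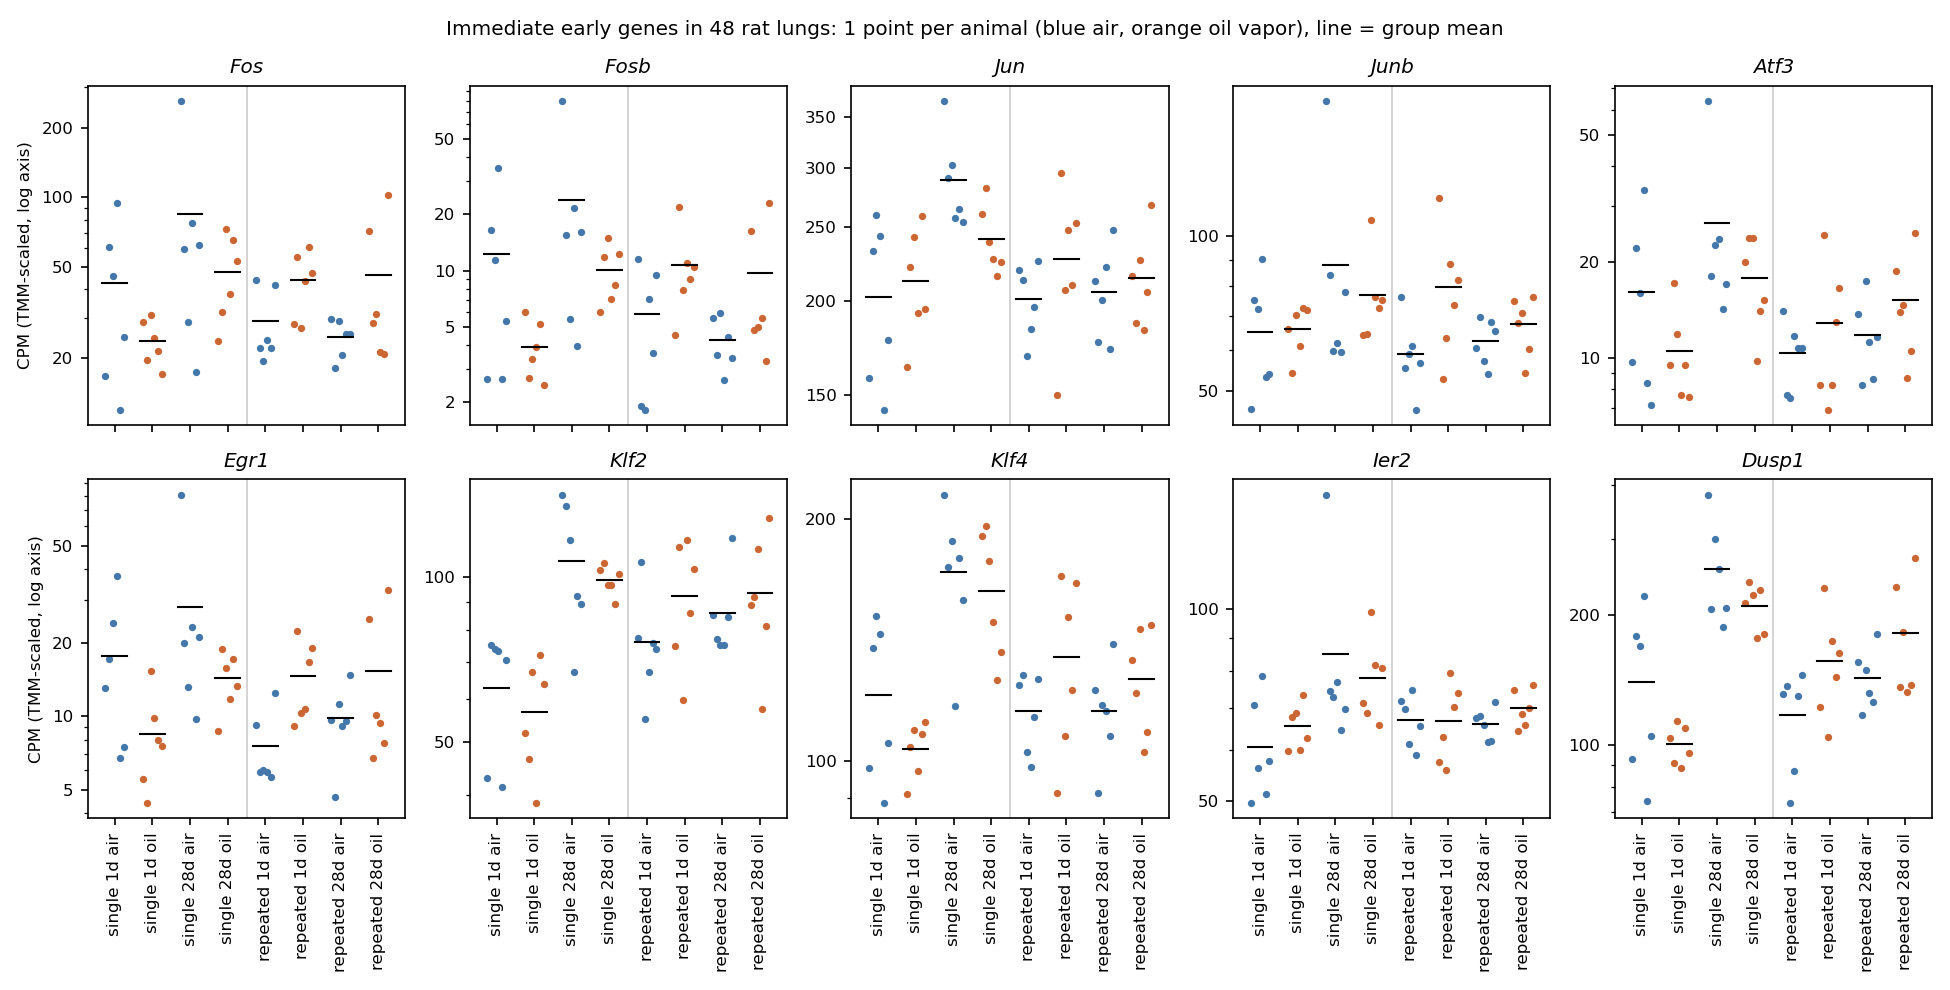
Level of each gene in CPM (log axis) for every animal, by group; blue points breathed air, orange points oil vapor, black lines are group means, and the grey line parts the single from the repeated schedule. The air group of the single schedule at 28 days has the highest mean of all 8 groups in all 10 panels, with Fos reaching 261 CPM in 1 animal.

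Fos and Fosb encode partners of Jun proteins in the AP-1 transcription factor. In air after the single schedule, Fos ran from 12.0 CPM through a median of 35.3 to 94.8 CPM at 1 day, and from 17.4 through 61.0 to 260.6 CPM at 28 days. In oil vapor it ran from 17.2 through 23.03 to 30.7 CPM at 1 day and from 23.8 through 45.5 to 72.5 CPM at 28 days. At both times the air group spanned all oil vapor values, reaching both lower and higher. After the repeated schedule, Fos ran from 19.6 through 23.1 to 43.7 CPM in air and from 27.2 through 45.2 to 60.6 CPM in oil vapor at 1 day. At 28 days it ran from 18.2 through 25.5 to 29.7 CPM in air and from 20.9 through 29.8 to 101.9 CPM in oil vapor. Here the oil vapor medians lay above those of air, and each pair of groups overlapped. Fosb moved over a wider range with the same order of groups at the extremes. Its median was 8.40 CPM in air and 3.67 CPM in oil vapor at 1 day of the single schedule, and 15.7 and 10.1 CPM at 28 days. In the repeated schedule its medians were 5.35 and 9.71 CPM at 1 day and 3.99 and 5.32 CPM at 28 days.

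Jun and Junb encode the Jun side of AP-1, with Junb the weaker activator that can hold Jun back. Jun was steadier than Fos: its group medians ran from 204 CPM in repeated air at 1 day to 278 CPM in single air at 28 days. At 28 days of the single schedule it ran from 254 to 368 CPM in air and from 215 to 282 CPM in oil vapor. Junb had medians of 57.8 CPM in repeated air and 77.9 CPM in repeated oil vapor at 1 day, where the oil vapor group spanned 52.6 to 119 CPM. Animal 43 was the highest of that group for Junb and, at 150 CPM, the lowest for Jun. Atf3, a stress-induced CREB-family factor that binds AP-1-like sites, ran from 7.11 to 33.7 CPM in single air at 1 day and from 14.2 to 63.7 CPM at 28 days.

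Egr1 encodes a zinc finger factor that serum response factor controls. At 1 day of the single schedule it ran from 6.71 through 15.1 to 37.6 CPM in air and from 4.42 through 7.77 to 15.3 CPM in oil vapor. At 1 day of the repeated schedule it ran from 5.65 through 5.98 to 12.5 CPM in air and from 9.14 through 13.6 to 22.3 CPM in oil vapor. The oil vapor animals lay below the air mean of 17.7 CPM in 6 of 6 cases in the first pair. That mean includes animal 4 at 37.6 CPM, and the highest oil vapor value lay above the air median. In the second pair they lay above the air mean of 7.53 CPM in 6 of 6 cases. The groups overlapped in both pairs. At 28 days the medians were 20.5 in air and 14.5 CPM in oil vapor after the single schedule, and 9.61 and 9.73 CPM after the repeated one.

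Klf2 and Klf4 encode zinc finger factors that keep endothelium quiescent. Klf2 ran from 41.5 through 71.9 to 75.3 CPM in single air at 1 day and from 67.1 through 105 to 141 CPM at 28 days. In single oil vapor it ran from 38.8 through 57.9 to 72.0 CPM at 1 day and from 89.3 through 99.2 to 106 CPM at 28 days. Klf4 ran from 88.9 through 122 to 152 CPM in single air at 1 day and from 117 through 176 to 214 CPM at 28 days. In single oil vapor it ran from 91.2 through 106 to 112 CPM at 1 day and from 126 through 163 to 196 CPM at 28 days. For both genes the oil vapor groups of the 2 times did not overlap, whereas the air groups did. In the repeated schedule the 4 group medians lay between 74.9 and 94.9 CPM for Klf2 and between 116 and 137 CPM for Klf4.

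Dusp1 encodes a phosphatase that switches off MAP kinases, and Ier2 a short-lived nuclear protein. Dusp1 ran from 74.4 through 138 to 221 CPM in single air and from 88.4 through 100.1 to 114 CPM in single oil vapor at 1 day. At 28 days it ran from 189 through 232 to 381 CPM in air and from 178 through 218 to 240 CPM in oil vapor. The lowest Dusp1 value at 28 days in oil vapor was above the highest at 1 day. Ier2 had group medians from 57.0 CPM in single air at 1 day to 76.0 CPM in single oil vapor at 28 days.

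The first question was whether oil vapor altered these genes against air of the same schedule and time. The members varied together between animals, as given below. In this and the later comparisons, counts of members by sign or by p are therefore not counts of independent genes. After the single schedule at 1 day, 7 of 10 members had fitted values below 0, where 46.7% of all genes did, and the median log2 fold change, oil vapor over air, was -0.35 against 0.01 for all genes. Fosb had -1.65 (SE 0.66, edgeR adjusted p = 0.425), Egr1 -1.07 (SE 0.46, adjusted p = 0.454) and Dusp1 -0.49 (SE 0.20, adjusted p = 0.446). In these 3 genes, and in Fos and Klf4, 0 of 6 oil vapor animals lay above the air mean, a count not made over all genes. By edgeR 0 of 10 members passed an adjusted p below 0.05, with 0 of 14820 genes tested, 0%, passing, and 3 of 10 members against 10.1% of genes had an unadjusted p below 0.05. DESeq2 and limma-voom called 0 members in this and the other 3 comparisons of oil vapor with air. Leaving out animal 4, which had the highest level of 7 members in its air group, brought Fosb to -0.96 and Egr1 to -0.69.

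At 28 days after the single exposure all 10 members had fitted values below 0, where 47.5% of genes did, with a median of -0.27. Fosb had -1.27 (SE 0.56, adjusted p = 0.561), Egr1 -1.01 (SE 0.42, adjusted p = 0.543) and Fos -0.86 (SE 0.48, adjusted p = 0.664). Again 0 members and 0% of genes passed by edgeR, and 2 members against 8.21% of genes had an unadjusted p below 0.05. These values leaned on animal 17 of the air group, the highest of its group for all 10 members. Without it Fosb had -0.30, Egr1 -0.29 and Fos -0.05, the median was -0.08, and Junb and Ier2 had values above 0, at 0.16 and 0.12.

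After the repeated schedule the values lay on the other side. At 1 day 9 of 10 members had values above 0, with a median of 0.36 against 0.02 for all genes, of which 45.3% lay below 0. Egr1 had 1.00 (SE 0.37, adjusted p = 0.397), Junb 0.40 (SE 0.14, adjusted p = 0.382), Fosb 0.92 (SE 0.47) and Fos 0.62 (SE 0.33). By edgeR 0 members passed, 0.00666% of 15005 genes passed, and 2 members against 9.29% of genes had an unadjusted p below 0.05. Without animal 43, Egr1 had 1.06 (adjusted p = 0.190) and Junb 0.29 (adjusted p = 0.282). At 28 days all 10 members had values above 0, where 47.5% of genes lay below, with a median of 0.25. Fosb had 1.20 (SE 0.48, adjusted p = 0.924) and Fos 0.90 (SE 0.34, adjusted p = 0.838). By edgeR 0 members and 0% of genes passed, with 2 members against 4.86% of genes at an unadjusted p below 0.05. Without animal 96, the highest of the oil vapor group for all 10 members, Fosb had 0.74 and Fos 0.50.

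**Figure D2:**
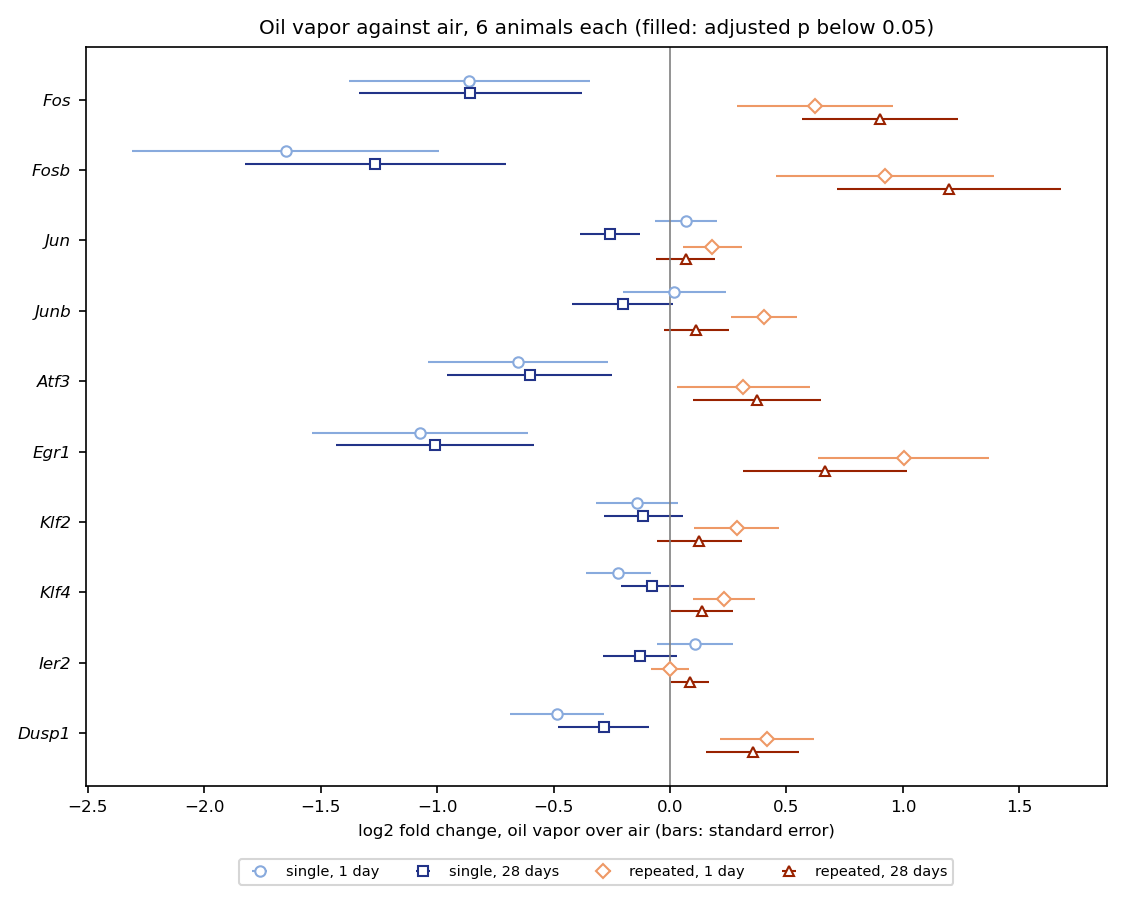
Fitted log2 fold change of oil vapor over air (x axis) for each gene (y axis), with standard errors as bars, in the 4 comparisons of 6 against 6 animals; no symbol is filled, since 0 members had an adjusted p below 0.05. Values of the single schedule (blue) lie mostly left of 0 and those of the repeated schedule (orange and red) mostly right of it, with the longest bars for Fosb, Fos and Egr1.

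The difference between the oil vapor effects of both schedules was tested as an interaction over all 48 libraries. At 1 day the effect after the repeated schedule exceeded that after the single one by 2.08 for Egr1 (log2, SE 0.62, adjusted p = 0.206), 2.58 for Fosb (SE 0.83, adjusted p = 0.251) and 0.91 for Dusp1 (SE 0.30, adjusted p = 0.268). The median was 0.68, with 9 of 10 members above 0, where 45.7% of genes lay below. By edgeR 0 members passed, 0.0457% of 15322 genes passed, and 5 members against 9.74% of genes had an unadjusted p below 0.05. At 28 days all 10 differences were above 0, where 50.3% of genes lay below, with a median of 0.48. Fosb had 2.45 (SE 0.79, adjusted p = 0.922) and Fos 1.75 (SE 0.62). Without animal 17 they had 1.49 and 0.95. By edgeR 0 members and 0% of genes passed, and 5 members against 5.2% of genes had an unadjusted p below 0.05. DESeq2 and limma-voom called 0 members at either time, so the opposite signs were not shown to differ between schedules after adjustment over all genes. Within a schedule, the oil vapor effect at 28 days minus that at 1 day passed for 0 members in either schedule, where 0% and 0.00666% of genes passed. In both schedules 0 members had an unadjusted p below 0.05 for it, against 7.83% and 7.8% of genes, and DESeq2 and limma-voom called 0 members.

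The second comparison set lungs at 28 days against lungs at 1 day, for air and for oil vapor apart, so each group of the comparisons above serves again. After the single schedule 4 members rose in air. Klf2 rose by 0.77 (log2, SE 0.17, adjusted p = 0.0119), Dusp1 by 0.87 (SE 0.20, adjusted p = 0.0139), Jun by 0.51 (SE 0.13, adjusted p = 0.0289) and Klf4 by 0.50 (SE 0.14, adjusted p = 0.0399). That was 4 of 10 members higher, where 1.01% of 14820 genes were called higher and 3.25% in either direction. All 10 fitted values were above 0, where 49.2% of genes lay below, with a median of 0.71. Fos had 1.00 (SE 0.48, adjusted p = 0.319), on a far wider spread. The Klf2 and Dusp1 calls held when any 1 animal was left out, whereas Jun and Klf4 both lost theirs without animal 1, 9, 10, 17 or 19, and Klf4 alone without animal 18 or 22. Without animal 17, Jun had 0.43 (adjusted p = 0.0804), Klf4 0.43 (adjusted p = 0.104) and Egr1 -0.03, and the median was 0.24. Fos then had 0.20, Fosb 0.0070, Junb 0.068 and Atf3 0.24. An unadjusted p below 0.05 was reached by 6 of 10 members, against 15.5% of genes, with all animals.

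In oil vapor lungs of the single schedule 3 members rose. Dusp1 rose by 1.07 (SE 0.20, adjusted p = 0.00115), Klf4 by 0.65 (SE 0.14, adjusted p = 0.00316) and Klf2 by 0.80 (SE 0.17, adjusted p = 0.00400). The groups of the 2 times did not overlap for these 3 genes and for Fosb (1.35, SE 0.67, adjusted p = 0.214), so 4 of 10 members, where 2.25% of genes did not overlap with 28 days higher. The fit shares its estimate of spread with the single air groups. For Fosb their SD of log2 CPM was 1.42 at 1 day and 1.49 at 28 days, against 0.46 and 0.49 in oil vapor. By the adjusted p, 4.45% of genes were called higher and 9.43% in either direction. All 10 values were above 0, where 50.5% of genes lay below, with a median of 0.77, and the 3 calls held when any 1 animal was left out. An unadjusted p below 0.05 was reached by 3 of 10 members, the called ones, against 24.4% of genes. Jun, called in air, had 0.19 here (SE 0.13, adjusted p = 0.407), and the oil vapor effect on it at 28 days minus that at 1 day was -0.33 (SE 0.19, adjusted p = 0.682).

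**Figure D3:**
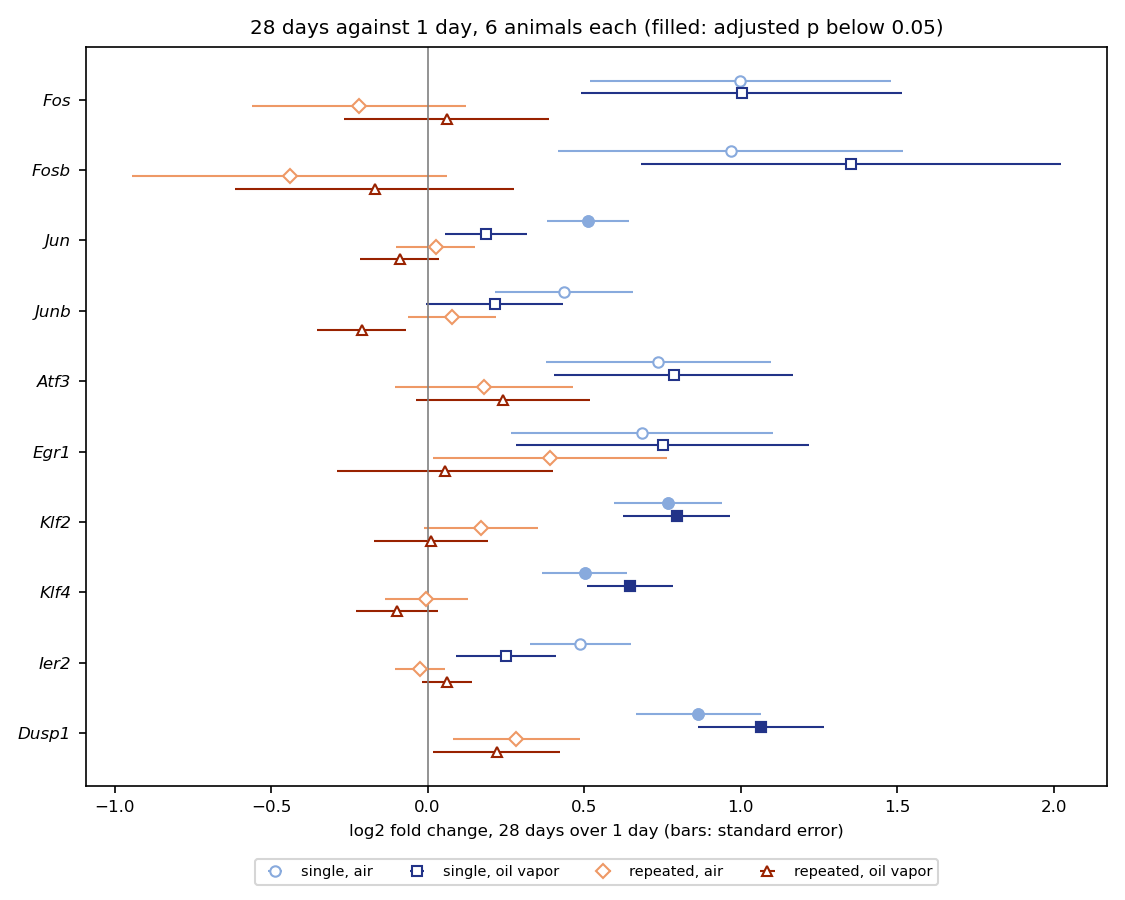
Fitted log2 fold change of 28 days over 1 day after exposure (x axis) for each gene (y axis), with standard errors as bars, for air and oil vapor in both schedules (6 against 6 animals each); filled symbols have an adjusted p below 0.05. Filled symbols are Klf2, Klf4, Dusp1 and, in air, Jun, all of the single schedule, while the repeated schedule lies around 0.

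After the repeated schedule 0 members passed in air, with a median of 0.05, and 0 in oil vapor, with a median of 0.03. In these comparisons 0.327% and 0.34% of 15005 genes passed by edgeR, and 0 members in either had an unadjusted p below 0.05, against 10.7% and 15% of genes. DESeq2 and limma-voom called 0 members as well. Dusp1 had 0.28 in air (SE 0.20) and 0.22 in oil vapor (SE 0.20), and Klf2 0.17 (SE 0.18) and 0.01 (SE 0.18). The change with time in the repeated schedule minus that in the single one was below 0 for all 10 members in air and in oil vapor, where 49.9% and 53% of genes lay below, with medians of -0.53 and -0.73. It passed for 1 of 10 members, Klf4 in oil vapor (-0.75, SE 0.20, edgeR adjusted p = 0.0480), where 0.927% of genes passed in either direction, and for 0 members in air, where 0.176% did and Ier2 had the smallest adjusted p, 0.298. The Klf4 call was lost without the filter on low counts (adjusted p = 0.0730). It held by DESeq2 (adjusted p = 0.0164) and by limma-voom (adjusted p = 0.0193). When each of the 24 animals of this comparison was left out in turn, the call was kept without 6 of them (animals 16, 31, 43, 45, 47 and 96) and lost without each of the other 18. The adjusted p ran from 0.0165 to 0.0867, and the value from -0.82 to -0.68. In air 4 members against 9.74% of genes had an unadjusted p below 0.05, and in oil vapor 3 members against 16.1%.

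Markers of other cells moved between these times too, and their part in the rises was not tested. In single oil vapor lungs, from 1 to 28 days, 6 of 9 erythroid markers fell and 0 rose. Their sum ran from 2482.58 to 14987.5 CPM at 1 day and from 1145.48 to 2584.33 CPM at 28 days. Of 6 liver transcripts tested, 4 fell, and their sum of 8 ran from 128.4 to 583.1 CPM and then from 130.01 to 169.2 CPM. Of 5 fibroblast markers 3 fell and 2 rose, with a sum of 6 from 4863.16 to 6349.46 CPM and then from 2818.46 to 3563.85 CPM. Of 10 markers of endothelium, the cells in which Klf2 and Klf4 are best known, 2 rose and 1 fell, with a median of 0.05 and sums from 4384.04 to 4815.83 CPM and from 4504.42 to 5454.11 CPM. In air, where 4 members rose, 1 of 10 endothelial markers rose and 1 fell, with a median of 0.01, 1 of 9 erythroid markers fell, and 1 of 6 liver transcripts rose. Of 5 fibroblast markers 3 fell there and 1 rose. The collagen genes Col1a1 and Col3a1 fell by 1.54 and 1.04 (log2), and the sum of 6 ran from 4592.45 to 6286.46 CPM at 1 day and from 2311.26 to 3381.52 CPM at 28 days, without overlap. None of these markers was at 0 in all 48 libraries. In these bulk libraries a change in the number of a cell type and in RNA per cell cannot be told apart.

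Other genes of the pathway were taken as a list of 30, of which 29 were tested. In single air, 9 of 29 rose from 1 to 28 days and 0 fell, and in single oil vapor 12 of 29 rose and 0 fell, with medians of 0.39 and 0.34. Among them, Mcl1, a survival factor, rose by 0.38 and 0.45. Sik1, a CREB-pathway kinase, rose by 0.81 and 0.95, and Crem, a cyclic AMP-responsive factor, by 0.63 and 0.60. The oil vapor effects in the 4 comparisons passed for 0 of 29, with 6 and 5 of 29 above 0 after the single schedule and 25 and 27 of 29 after the repeated one. Of all genes, 46.7% and 47.5% lay below 0 after the single schedule and 45.3% and 47.5% after the repeated one. The mean of this list followed the member mean between animals (r = 0.91). Its sign counts are thus neither counts of independent genes nor independent of those of the members. Of 20 upstream genes, such as Srf, Elk and MAP kinase genes, 0 passed in single air, and 1 fell in single oil vapor, the MAP kinase kinase Map2k1 (-0.21, adjusted p = 0.0358). Of 8 endothelial targets of Klf2 and Klf4, 1 rose and 2 fell in single air from 1 to 28 days, and 2 rose and 2 fell in single oil vapor. S1pr1, a sphingosine 1-phosphate receptor, rose by 0.43 and 0.65. Vcam1, a leukocyte adhesion molecule, fell by 0.37 and 0.27, and Cxcl12, a chemokine, fell by 0.47 and 0.35. Edn1, which encodes the precursor of the vasoconstrictor endothelin 1, rose by 0.66 in oil vapor. Of 7 glucocorticoid-responsive genes 6 rose in single oil vapor, with a median of 0.80, and 0 in single air, with 0.37. Of 9 heat shock genes 4 rose in single oil vapor and 0 in single air. The part of these lists in the rises of the members was not tested.

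The third comparison asked how the members varied together between animals of 1 group, on log2 CPM minus the group mean over 48 animals. All 45 pairs of members had a Pearson r above 0, from 0.21 to 0.91 with a median of 0.63. By a two-sided permutation within groups, 43 of 45 pairs passed a Benjamini-Hochberg adjusted p below 0.05 over the 45, and 41 by Spearman's rho, whose median was 0.57. Over all 117374181 pairs of the 15322 genes, 49.8% had an r above 0, and 9.16% had an r of at least 0.36, the lowest r of a member pair that passed. Without the 2 animals farthest from the median of the first gene of a pair, all 45 r stayed above 0, the lowest at 0.30 and the median at 0.52. Within the single schedule alone 45 of 45 r were above 0 with a median of 0.68, and within the repeated one 41 of 45 with a median of 0.57. Without animal 17, 38 of 45 pairs passed, and without animal 43, 45 of 45.

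**Figure D4:**
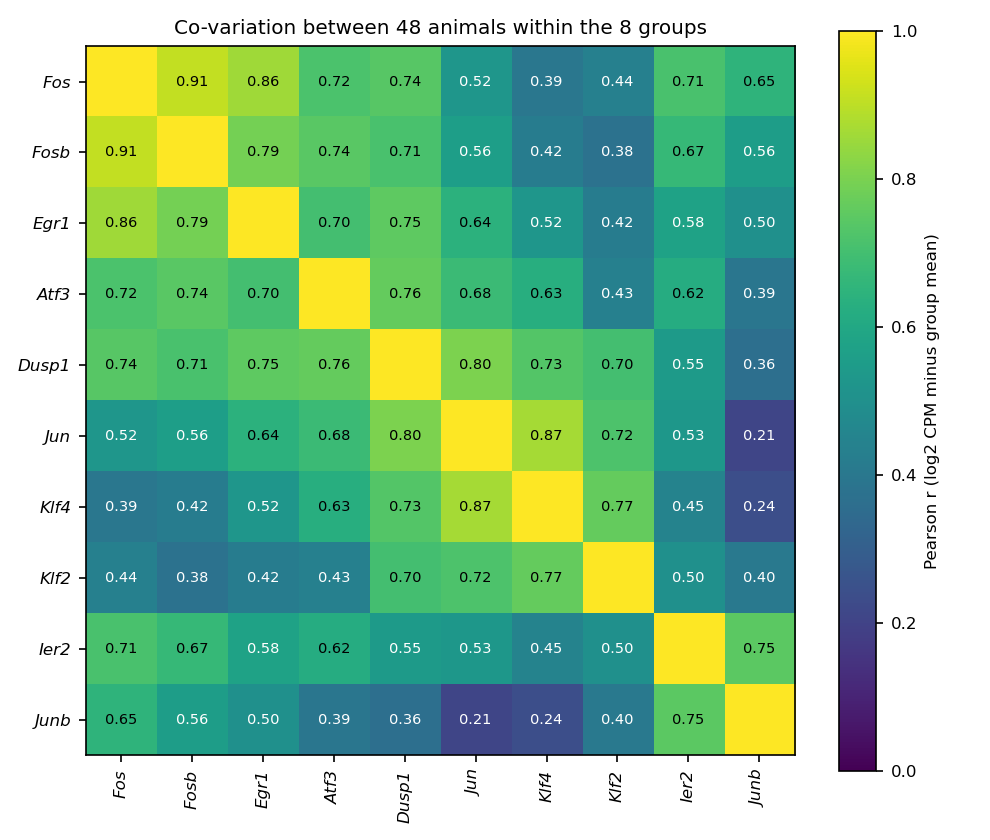
Pearson r between each pair of genes over 48 animals, after subtraction of the group mean from log2 CPM; both axes list the 10 genes and the color gives r. Fos, Fosb, Egr1, Atf3 and Dusp1 form one bright block, Jun, Klf4 and Klf2 with Dusp1 another, Ier2 and Junb a pair, and Jun with Junb is the darkest cell at 0.21.

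Some pairs stood far closer than others. Fos and Fosb had r = 0.91 and rho = 0.87, Fos and Egr1 0.86 and 0.81, and Fosb and Egr1 0.79 and 0.73, each with permutation adjusted p = 3.21e-05 for r, which rests on the smallest p that 100000 permutations can give. Without the 2 farthest animals these r were 0.88, 0.81 and 0.71. Jun and Klf4 had r = 0.87 and rho = 0.87, Jun and Dusp1 0.80 and 0.82, and Klf2 and Klf4 0.77 and 0.76, at the same adjusted p. Without the 2 farthest animals they were 0.83, 0.80 and 0.73. Jun and Klf4 were above 0 in all 8 groups taken singly, from 0.74 to 1.00 over 6 animals each. Fos and Klf4 were looser, with r = 0.39 (rho = 0.36, permutation adjusted p = 0.0238), 0.39 without the 2 farthest animals, and 0.33 without animal 17 (adjusted p = 0.0645). Dusp1 was about as close to Fos (r = 0.74) as to Klf4 (0.73).

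Measured against the mean of the other 9 members, r was highest for Fos (0.89) and lowest for Klf2 (0.56) and Junb (0.58). Junb was close to Ier2, with which it had r = 0.75 (rho = 0.62, permutation adjusted p = 0.000300), 0.73 without the 2 farthest animals, 0.89 in the single and 0.32 in the repeated schedule. With Jun it had r = 0.21 (rho = 0.29, adjusted p = 0.222), 0.54 in the single and -0.31 in the repeated schedule. With Klf4 it had r = 0.24 (rho = 0.30, adjusted p = 0.197). These were the 2 pairs that did not pass by r. Both passed without animal 43, at 0.39 (adjusted p = 0.0187) and 0.40 (adjusted p = 0.0317). It was not the only source of low r: each pair was above 0 in 5 of the 8 groups taken singly. At 28 days Jun with Junb had -0.46 in repeated air and -0.36 in single oil vapor, and Junb with Klf4 -0.36 and -0.08. With erythroid, cardiac muscle and liver means held constant, Jun with Junb passed with animal 43 kept (r = 0.34, permutation adjusted p = 0.0389). Without animal 17, in turn, 5 other pairs no longer passed, with r from 0.18 (Junb with Atf3, adjusted p = 0.364) to 0.33 (Fos with Klf4).

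**Figure D5:**
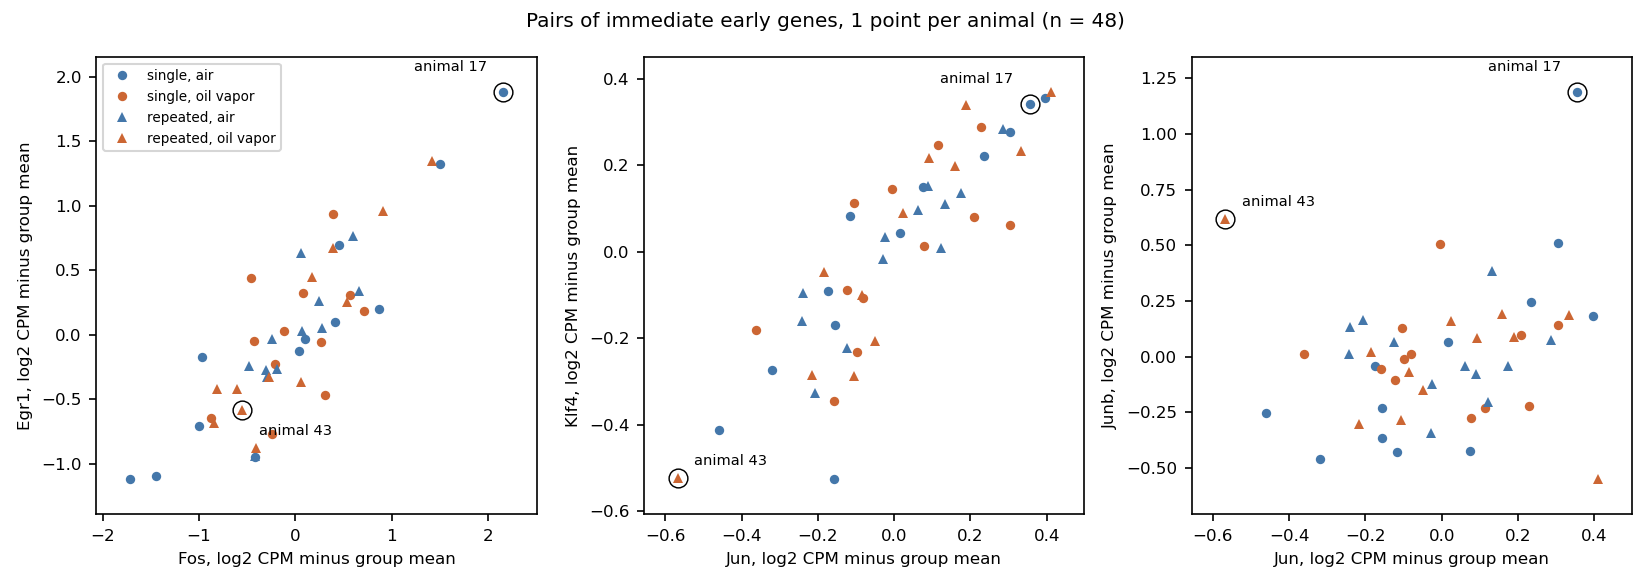
Log2 CPM minus the group mean of 1 gene against another for 48 animals, with circles for the single and triangles for the repeated schedule, blue for air and orange for oil vapor, and animals 17 and 43 ringed. Points follow a line for Fos and Egr1 (r = 0.86) and for Jun and Klf4 (r = 0.87), whereas Jun and Junb (r = 0.21) scatter widely, with animal 43 low for Jun and high for Junb.

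The co-variation was not equally tight in all groups. The median r of the 45 pairs was 0.88 in single air at 1 day and 0.81 at 28 days, and 0.32 and 0.13 in single oil vapor. It was 0.44 and 0.45 in repeated air at 1 and 28 days, and 0.71 and 0.83 in repeated oil vapor. Each rests on 6 animals, and the difference between groups was not tested. Over all 10 members the mean deviation from the group ran from -0.74 in animal 9, of single air at 1 day, to 1.17 in animal 17. All 10 members were above their group mean in 6 of 48 animals and all 10 below it in 4. Animals 17 and 96 had the highest value of their group for all 10 members, animal 4 for 7, and animals 44 and 88 for 6.

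Among the genes outside the members most like the member mean over 48 animals were, by r, Cyr61 (0.86), Nr4a1 (0.86), Zfp36 (0.79), Sik1 (0.75), Ier3 (0.71), LOC102555400 (0.70) and Cited2 (0.70). Cyr61 encodes a matrix-associated protein, Nr4a1 an orphan nuclear receptor and Zfp36 an mRNA-decay factor. Of the 29 other immediate early genes 19 had r above 0.5, against 60 of 15276 genes, 0.393%, and their median r was 0.59. The list's mean followed the member mean at r = 0.91.

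Lists of other genes had smaller r with the member mean, as descriptions over the same 48 libraries. The r was 0.49 for endothelial targets of Klf2 and Klf4, 0.39 for upstream kinases and factors, and 0.27 for endothelial markers. It was 0.30 for heat shock genes, with 0.13 in the single and 0.52 in the repeated schedule. Without animal 17 the r for heat shock genes was 0.56, a value given for this list only, so it cannot be set beside the other lists. With all animals r was -0.30 for airway, -0.24 for neutrophil, -0.10 for ribosomal protein, -0.09 for clock and -0.03 for erythroid genes. Without the 2 animals farthest from the median of each list's mean, r was 0.46 for the Klf2 and Klf4 targets, 0.42 for upstream genes, 0.28 for heat shock and -0.28 for airway genes. It was then 0.16 for endothelial, -0.08 for neutrophil, 0.04 for ribosomal protein, -0.08 for clock and 0.10 for erythroid genes. Liver transcripts had 0.56 in the single and -0.17 in the repeated schedule, and 0.01 over all without the 2 farthest animals. Single members differed more. Klf4 and Jun followed endothelial markers at 0.61 and 0.56 and neutrophil markers at -0.42 and -0.54. In the single and the repeated schedule apart, Klf4 had 0.66 and 0.65 with endothelial markers, and Jun 0.45 and 0.67. With neutrophil markers Klf4 had -0.23 and -0.58, and Jun -0.39 and -0.67. Fos followed endothelial and neutrophil markers at 0.09 and -0.18, and Junb at -0.20 and 0.29. The Junb values differed too between schedules, of which the repeated one holds animal 43, and these differences were not tested. For Junb with endothelial markers r was 0.17 in the single and -0.53 in the repeated schedule, and with neutrophil markers 0.05 and 0.60. Junb also had 0.39 with ribosomal protein genes (0.29 in the single and 0.57 in the repeated schedule) and 0.34 with T cell markers (0.23 and 0.50). Jun had -0.44 with ribosomal protein genes (-0.25 and -0.58) and -0.47 with T cell markers (-0.30 and -0.61). With liver transcripts Junb had 0.50 (0.64 and 0.36). The part of cell makeup in these values was not tested. The count of pairs that passed went from 43 to 44 of 45 when erythroid, cardiac muscle and liver means were held constant. These means followed the member mean at -0.03, -0.12 and 0.22, and endothelial and neutrophil means were not held constant. That count therefore does not test the part of cell makeup.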

How the data were processed

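Lung RNA of 48 rats was sequenced from ribosome-depleted, stranded libraries, 24 per schedule. The authors deposited whole-number counts per gene in 2 tables, 1 per schedule, covering the same 30045 genes, made on Rnor_6.0 with HTSeq 0.6.1, HISAT2 2.1.0, SAMtools 1.8, Trimmomatic 0.35 and bcl2fastq 2.19, as named in the submitters' processing notes without their roles. Neither the gene annotation nor whether HTSeq used strand is given in the sources used here. Samples were matched to columns by title. For animal 32 the description names the other table, and the title and column were followed.

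Counts were fitted with edgeR 4.0.16 (R 4.3.3) by quasi-likelihood with TMM factors, a filter on low counts (filterByExpr) and Benjamini-Hochberg adjustment over all genes tested, 24 libraries per schedule. Differences between schedules used all 48, and those of the change with time between schedules, and leaving out animals in all of these, were added after seeing the data. An adjusted p below 0.05 was a call. Levels are CPM with TMM factors over 48 libraries, and correlations used log2 CPM (prior count 2) centred within groups, with 100000 permutations within groups. P-values measure the spread between animals. In each edgeR fit the groups shared their estimate of spread per gene, so animals outside a comparison also shaped its SE and p. Alternatives were RLE factors, no filter, DESeq2 1.42.0, limma-voom (limma 3.58.1) with sample weights, 48 libraries, and each animal left out. The fits and correlations were also run on simulated data. Those had equal spread in all groups and no outlying animal, unlike the members here. Members and lists were chosen with earlier results of these data known. The text names all 10 members, up to 5 genes of a list past the threshold by smallest p, and the 8 non-members most like the member mean among genes with a mean of at least 1 CPM, of which 1 is not reported here. Promoters came from the RefSeq table on GRCr8. The lowest count of any member in any library was 5.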

Additional observations from a re-analysis of the deposited data

Results flagged for a closer look

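In each of 80 sets (10 genes in 8 groups of 6 animals) the highest and lowest animal were tested for standing apart by Dixon's criterion at the 95% level, and 9 sets had such an animal. Chance would flag about 1 in 20 sets only if values were normal and sets independent. These sets share the same animals and the members vary together, so the 9 cannot be set against that rate. Animal 17 of air after the single schedule at 28 days accounted for 6 of them: Fos at 260.6 CPM (median of the other 5 animals 59.8), Fosb at 79.2 CPM (15.5), Junb at 183 CPM (62.1), Egr1 at 80.8 CPM (19.9), Ier2 at 151 CPM (72.6) and Atf3 at 63.7 CPM (18.1). The other 3 were Fosb in animal 44 of repeated oil vapor at 1 day (21.7 CPM, others 9.01), Junb in animal 28 of single oil vapor at 28 days (107 CPM, others 72.6) and Klf2 in animal 88 of repeated air at 28 days (118 CPM, others 77.3). A tested difference between schedules was the change of Klf4 from 1 to 28 days in oil vapor, repeated minus single, at -0.75 (log2, edgeR adjusted p = 0.0480), a call kept without 6 and lost without 18 of the 24 animals left out in turn.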

How the results depend on the processing

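Animal numbers were unique across groups. No paired analysis was possible because the groups compared shared no replicate number. The direction of the median over members was kept in all alternatives run for the 4 oil vapor comparisons and the changes with time of the single schedule. By all of RLE factors, no filter, DESeq2, limma-voom and 48 libraries, 0 members passed in the oil vapor comparisons. The 4 calls in single air were 2 to 4 when 1 animal was left out and 5 with 48 libraries (Ier2, adjusted p = 0.0329), and the 1 call between schedules (Klf4, oil vapor) became 0 with no filter and 0 to 1 when 1 animal was left out. Counts over all genes were less stable, and the cause was not tested. For oil vapor against air after the single schedule at 1 day (0 genes by edgeR) DESeq2 called 17 and limma-voom 1, and at 28 days (0) DESeq2 called 24. After the repeated schedule at 1 day (1) the counts were 0 with no filter, 90 by DESeq2, 93 by limma-voom and 0 with 48 libraries, and at 28 days (0) DESeq2 called 21. For 28 against 1 day in repeated air (49) they were 191 by DESeq2, 244 by limma-voom and 131 with 48 libraries. In repeated oil vapor (51) they were 23 with no filter, 311, 232 and 430. For the oil vapor effect at 28 minus 1 day, the single schedule (0) had 11 with no filter and 21 by DESeq2, and the repeated one (1) had 0 by RLE, 0 with no filter, 47 by DESeq2, 3 by limma-voom and 36 with 48 libraries. For the effect in repeated minus single, day 1 (7) had 43 by DESeq2 and 34 by limma-voom, and day 28 (0) had 2 by limma-voom. For the change with time in repeated minus single, air (27) had 17 with no filter, 114 by DESeq2 and 80 by limma-voom, and oil vapor (142) had 68, 360 and 377. Values near 0 changed sign. Ier2 in repeated oil vapor against air at 1 day went from -0.00096 to 0.0045 (RLE), 0.014 (DESeq2), 0.032 (limma-voom) and 0.0052 (48 libraries). Klf4 with time in repeated air became 0.024 (limma-voom) and 0.0017 (48 libraries). By limma-voom, Fos and Egr1 with time in repeated oil vapor became -0.17 and -0.075, Fos and Fosb in the repeated oil vapor effect at 28 minus 1 day -0.078 and -0.24, and Egr1 with time in air, repeated minus single, 0.016. Fos in the single oil vapor effect at 28 minus 1 day became -0.0017 with no filter. Leaving out 1 animal moved the count of all genes from 0 to 3 and 0 to 9 for single oil vapor against air at 1 and 28 days, and from 0 to 32 for repeated at 1 day (32 without animal 43). It gave 315 to 516 with time in single air, 2 to 60 in repeated air, 4 to 156 in repeated oil vapor, and 0 to 10 and 0 to 4 for the effect at 28 minus 1 day, single and repeated. For repeated minus single it gave 0 to 25 for the effect at 1 day (25 without animal 43), and 11 to 47 in air and 67 to 298 in oil vapor (298 without animal 43) for the change with time. Signs then changed for Jun (-0.017 to 0.15) and Junb (-0.069 to 0.14) at 1 day, and Junb (-0.32 to 0.16) and Ier2 (-0.21 to 0.12) at 28 days, of the single oil vapor comparison. They changed for Ier2 (-0.061 to 0.051) at 1 day and Jun (-0.0085 to 0.12) at 28 days of the repeated one. With time they changed for Egr1 in single air (-0.034 to 1.07), for Klf4 (-0.060 to 0.056), Ier2 (-0.061 to 0.011) and Jun (-0.032 to 0.075) in repeated air, and for Fos (-0.34 to 0.21), Klf2 (-0.10 to 0.12), Fosb (-0.62 to 0.11) and Egr1 (-0.32 to 0.20) in repeated oil vapor. In the single oil vapor effect at 28 minus 1 day they changed for Fos (-0.41 to 0.81), Klf2 (-0.072 to 0.13), Atf3 (-0.32 to 0.55), Egr1 (-0.32 to 0.79), Fosb (-0.31 to 1.34), Junb (-0.34 to 0.15) and Ier2 (-0.33 to 0.018). In the repeated one they changed for Fosb (-0.18 to 0.55), Atf3 (-0.13 to 0.30), Dusp1 (-0.21 to 0.072) and Fos (-0.12 to 0.42). In repeated minus single they changed for Junb (-0.059 to 0.43) and Ier2 (-0.047 to 0.29) in the effect at 28 days, and for Junb (-0.48 to 0.0029) and Egr1 (-0.67 to 0.42) in the change with time in air, all without animal 17. Depth limits Fosb, Atf3 and Egr1 most, whose lowest counts in a library were 5, 9 and 10.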
